A study of Mus musculus with 6 samples.

Results

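The 38 genes described here encode the folding and disposal machinery of the endoplasmic reticulum (ER) in mouse N2A cells: 12 chaperones and their partners, 3 genes of the lectin cycle, 9 disulphide enzymes, 10 genes of ER-associated degradation (ERAD) and 4 genes of the sensors that control them and their downstream factor XBP1. They were chosen by name for these roles, with no threshold on their values but with earlier results of these data known. All 38 had a probe set among the 19938 genes with a usable one. N2A is an established mouse neuroblastoma line, and the labels name no clone. Cultures of 2 groups were compared at a time taken as 3 days after transfection. For RNA extraction after knockdown the study's methods give 2 to 3 days. The Pax6 knockdown group, with 3 arrays, had received 1.5 µg of a vector expressing a short hairpin RNA (shRNA) against Pax6, and the control group, also with 3 arrays, a non-targeting vector. Both groups share the growth medium with fetal bovine serum, the transfection reagent and, per the study's methods, a vector backbone with a U6 promoter for the hairpin and a CMV promoter for green fluorescent protein. Transfection was transient and no sorting of transfected cells was stated, so each array averages over cells with and without the vector. In such bulk samples, fewer cells expressing a gene and less RNA per cell cannot be told apart. From each culture 200 ng of RNA was labelled and put on an Affymetrix array that covers whole transcripts, and a value is the deposited log2 summary of 1 probe set. A difference of 1 on this scale is a doubling of signal, and fold changes are given as the log2 difference of Pax6 knockdown minus control, with the fit's standard error (SE).

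Proteins that enter the ER are kept soluble by the chaperone BiP and its co-chaperones, are cross-linked by disulphide isomerases, and, if they carry sugar chains, are held in cycles of binding by the lectins calnexin and calreticulin until they fold. Chains that fail are recognised by lectins such as OS9, handed to the SEL1L and HRD1 ubiquitin ligase complex, and destroyed by the proteasome in the cytosol. When unfolded chains accumulate, the sensors ATF6, IRE1 and PERK start the unfolded protein response. Its ATF6 and XBP1 branches induce chaperones, disulphide enzymes and ERAD genes, and its PERK branch slows translation and raises the transcription factor ATF4 with its targets.

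The targeted gene was lower in the knockdown cultures. Pax6 had log2 values of 8.48, 8.30 and 8.50 on the Pax6 knockdown arrays, against 8.79, 8.82 and 8.81 on the control arrays, a fold change of -0.38 (SE 0.0711, limma adjusted p = 0.0382). The call was lost without any one of the control arrays or without knockdown replicate 3, with fold changes between -0.42 and -0.37. Over the 11424 genes tested, 762 (6.67%) passed the threshold, a 10% false discovery rate (FDR). In the knockdown 443 genes (3.88%) were lower and 319 (2.79%) higher, and the median fold change was 0.02. Among markers of a neuroblastoma line, 13 of 15 were above the low-value filter, with Nefl and Nefm, which encode neurofilaments, below it. Of the 13 tested, 4 were called lower and 0 higher, namely Dbh, Chgb, Isl1 and Chga. That is 30.8% called, against 6.67% of all genes tested and 3.88% called lower. Fold changes of the 13 ranged between -1.08 and 0.19, with a median of -0.07. Group means of the 15 ranged between 5.80 and 13.56 in knockdown and between 5.81 and 13.53 in control cultures. Of 28 markers of other cell types, 22 were below the filter, and of the 6 tested 1, Sdc1, was called lower. Group means of the 28 ranged between 5.15 and 10.88 in knockdown and between 5.12 and 11.18 in control cultures. The part of marker changes in the results below was not tested.

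Most of the ER folding and disposal genes had lower values in the Pax6 knockdown, by small amounts, and few passed the test singly. Of the 38 genes 37 were tested: 4 were lower at 10% FDR, 0 were higher and 33 had no call, so 10.8% were called, against 6.67% of all genes tested and 3.88% called lower. The 4 were the ERAD lectin gene Os9, the co-chaperone genes Sdf2l1 and Dnajb11, whose products bind each other, and P4hb, the gene of protein disulphide isomerase. Without adjustment 15 had limma p under 0.05 in the lower direction and 2 in the higher, against 1079 and 1067 of the 11424 genes tested. The fold changes ranged between -0.45 and 0.17 with a median of -0.13. Of the 37, 30 were negative and 7 positive, against 5082 and 6342 of all genes tested. In 17 of the 37 all knockdown arrays lay below all control arrays and in 4 all lay above, against 11.7% and 13.9% of all genes tested. The derlin gene Derl3 was below the low-value filter, with 7.08, 7.24 and 7.16 on the knockdown arrays, against 7.17, 7.09 and 7.14 on the control arrays, and was not tested.

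The number of calls depended on how the arrays were used. Knockdown and control arrays with the same replicate number deviated together, and a fit with that number as a block called 15 of the 37 genes lower and 0 higher, against 8.91% of all genes tested called lower and 8.96% called higher in the same fit. The 15 included the 4 above, and added Creld2, Dnajc3, Dnajc10, Hsp90b1, Manf, Uggt1, Pdia3, Pdia6, Derl2, Syvn1 and Eif2ak3. Within replicate numbers, 25 of the 37 differences were negative in all 3 pairs and 4 positive in all 3, against 21.3% and 28.4% of all genes tested. Leaving out 1 array at a time left 0 of the 37 called lower without control replicate 1, control replicate 2 or knockdown replicate 3. Without control replicate 3, 1 (Sdf2l1) was lower, against 128 of the 11424 genes tested. Without knockdown replicate 2, 5 were lower, against 465 of the 11424. Without knockdown replicate 1, 8 were lower, P4hb not among them, against 444 of the 11424. The median fold change over the 37 stayed between -0.18 and -0.10.

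The knockdown arrays were not equally low. Relative to the mean of the control arrays, the median of the 37 genes was -0.07, -0.19 and -0.16 on knockdown replicates 1, 2 and 3, against 0.05, 0.01 and -0.06 on control replicates 1, 2 and 3. All 3 knockdown arrays lay below all 3 control arrays in this median, with knockdown replicate 1 and control replicate 3 closest to each other. The same medians over all genes tested were 0.06, -0.05 and 0.03 on the knockdown arrays, against 0.03, -0.02 and 0.00 on the control arrays, so the array order of the 37 genes was not that of all genes. The plot of values by array shows this gene by gene.

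**Figure D1:**
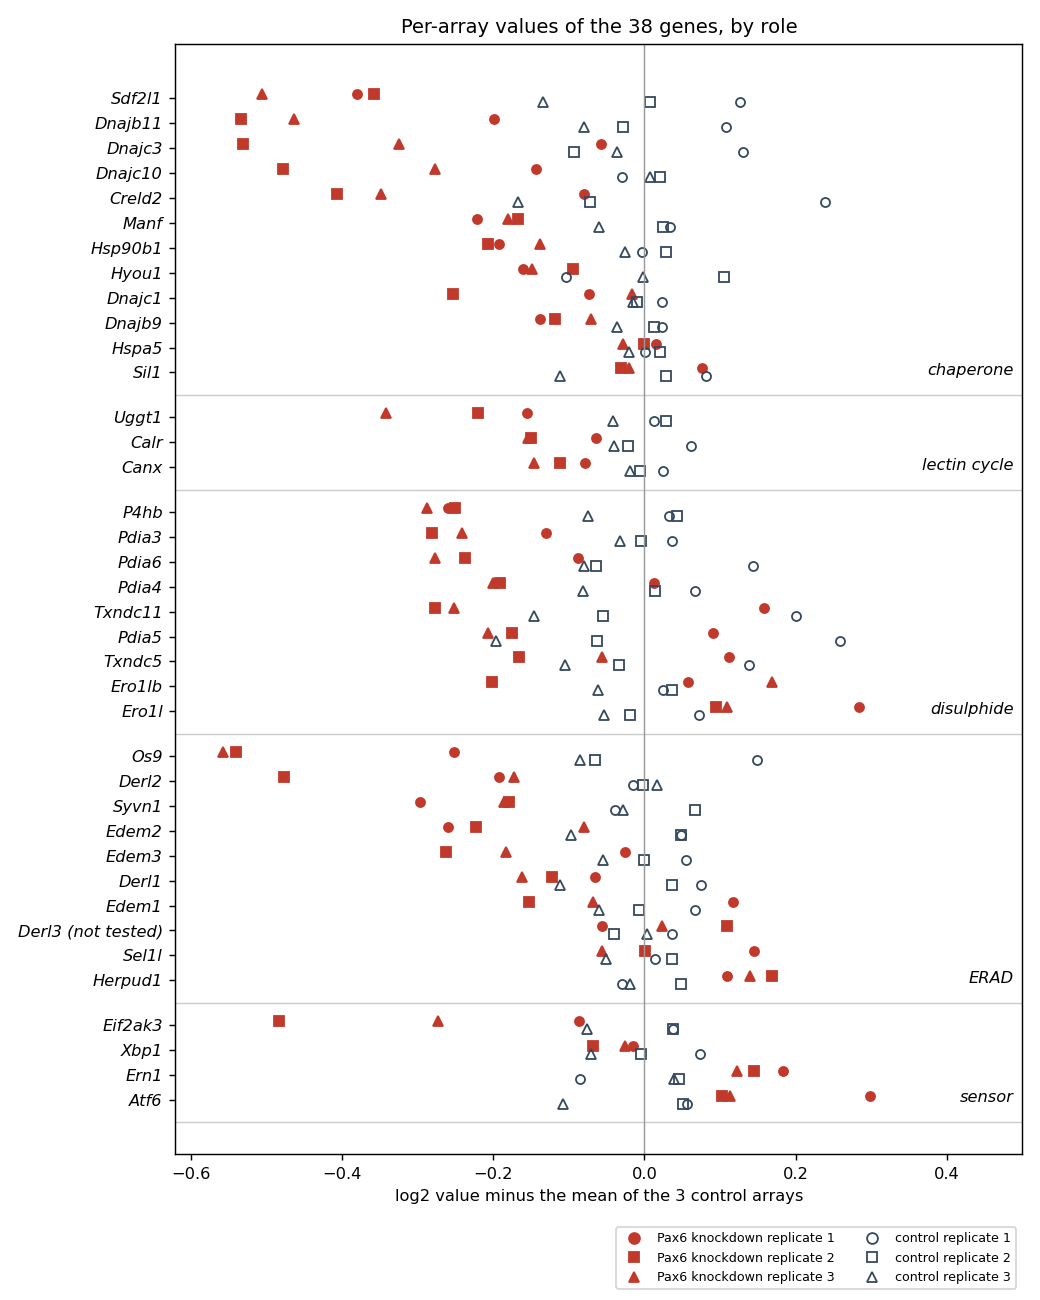
Log2 value of each of the 38 genes on each array, minus the mean of that gene's 3 control arrays (x axis), with genes grouped by role on the y axis. Filled red symbols are Pax6 knockdown arrays, open symbols control arrays, and the shape gives the replicate number. In 17 tested genes all filled symbols lie left of all open ones, and in Ero1l, Herpud1, Ern1 and Atf6 all lie right.

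Some of these genes share a promoter sequence. They were chosen for roles in a response that ATF6 induces, so the shares with its site are descriptive and no independent result. The ER stress response element (ERSE), the site through which ATF6 acts with the CCAAT-binding factor NF-Y, consists of CCAAT followed after 9 bases by CCACG. RefSeq promoter windows of assembly GRCm38.p6, spanning 250 bases before to 50 bases after a start site, were found for 33 of the 38 genes and searched on both strands. An exact ERSE was present in 10 of the 33 genes (30.3%), against 14 of the 9166 tested genes with a window (0.153%) and 0.119% of all 32851 windows. Of those 14 tested genes, 9 belong to the set described here. None of 31 other ER folding genes, 19 other ERAD genes, 21 genes of the ATF4 arm or 31 cytosolic chaperone genes with a window held one. The sites of the following genes are shown because they include chaperone, lectin, disulphide and ERAD genes of the set. None of these genes was called without the replicate block, and Hsp90b1, Pdia6, Dnajc3, Creld2 and Syvn1 were called lower with it. Capitals mark both parts of the element, and each site is read 5′ to 3′ on the strand that carries it, with 4 flanking bases on either side.
Hspa5: ttcaCCAATcggaggcctCCACGacgg
Hsp90b1, nearer site: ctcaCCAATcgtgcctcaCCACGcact
Hsp90b1, farther site: aagcCCAATcgcaaggagCCACGcttc
Calr: tgggCCAATgagggtcgaCCACGcgtt
Canx: ttgaCCAATcaccacgctCCACGaaga
Pdia6: gagaCCAATgaaaggcggCCACGgcgt
Dnajc3: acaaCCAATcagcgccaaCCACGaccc
Creld2: tggaCCAATtgaggctcgCCACGagaa
Syvn1: gcaaCCAATcggcggtagCCACGggaa
Without the flanks, the Hspa5 site lies at chr2:34772025-34772043 on the plus strand, at -65 from the start, the nearer Hsp90b1 site at chr10:86705533-86705551 on the plus strand and the farther at chr10:86705638-86705656 on the minus strand. The Calr site lies at chr8:84847075-84847093 (plus), that of Canx at chr11:50325800-50325818 (minus), that of Pdia6 at chr12:17266491-17266509 (plus), that of Dnajc3 at chr14:118937827-118937845 (plus), that of Creld2 at chr15:88819520-88819538 (minus) and that of Syvn1 at chr19:6046532-6046550 (plus). All are upstream of the annotated start in promoter sequence. Derl3 and Ero1lb were the other genes with an ERSE.

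Of the 9 tested genes with an ERSE, 0 were called at 10% FDR, 8 had a negative fold change, and the median was -0.18 with a range of -0.30 to 0.01. Of the 28 tested genes without one, or without a window, 4 were called lower, 22 were negative and the median was -0.12. Over all genes tested 3.88% were called lower. With the replicate block, 5 of the 9 and 10 of the 28 were lower, so the contrast of 0 with 4 calls was not kept. In that fit 8.91% of all genes tested were lower. The ranges overlapped throughout, and no test was made of the difference. A shorter form of the element, ERSE-II, in which ATTGG is followed after 1 base by CCACG, was found in Dnajb11 and Herpud1, 2 of the 33 genes (6.06%) against 0.0982% of tested genes. They are shown because they carry the same element and had fold changes of opposite sign, and the Herpud1 promoter is shown also for its match to the C/EBP-ATF element, through which ATF4 acts.
Dnajb11, ERSE-II: ggcgATTGGcCCACGcctg
Herpud1, ERSE-II: gctgATTGGgCCACGttgg
Herpud1, C/EBP-ATF element: cgggTTGCATCAgccc
In these, capitals mark the element, which lies without flanks at chr16:22857852-22857862 in Dnajb11, just inside the transcribed sequence, and at chr8:94386377-94386387 and chr8:94386317-94386324 in Herpud1, all on the plus strand, which is that of the genes. The C/EBP-ATF element was found in 1 of the 33 genes (3.03%), against 0.742% of tested genes and 5 of 21 genes of the ATF4 arm. The core of the unfolded protein response element bound by XBP1 and ATF6 was found in Txndc5 and Txndc11, 6.06% of the 33 genes against 1.13% of tested genes. A match describes the letters of the window only.

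**Figure D2:**
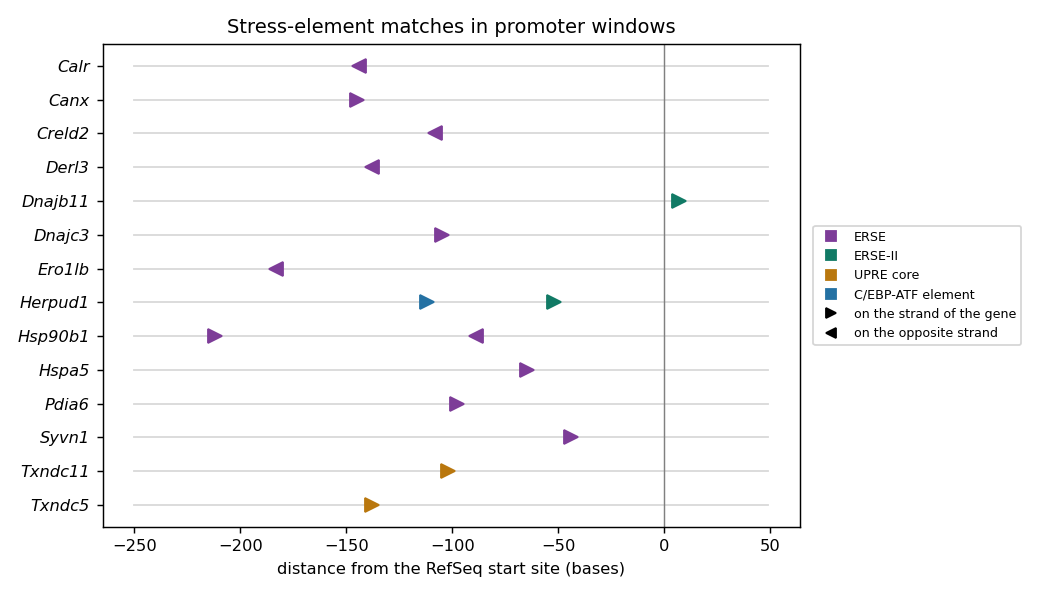
Position of each element match (x axis, bases from the RefSeq start site, negative upstream) in the promoter windows of the genes that hold one (y axis). Colour gives the element and the direction of the triangle its strand relative to the gene; the ERSE matches all lie upstream of the start, and the ERSE-II match of Dnajb11 lies just after it.

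Among the chaperones, a pair of genes of BiP's co-chaperone system fell, while the knockdown and control values of the BiP gene overlapped. Of 12 tested, 2 were lower at 10% FDR and 0 were higher (16.7% called, against 6.67% of all genes tested). In this group 11 had negative fold changes and the median was -0.18. Sdf2l1, which encodes an ER-resident binding partner of the co-chaperone ERdj3, had log2 values of 12.37, 12.39 and 12.25 on the Pax6 knockdown arrays, against 12.88, 12.76 and 12.62 on the control arrays. The groups did not overlap, and Sdf2l1 fell by 0.41 (SE 0.0826, adjusted p = 0.0452). Dnajb11, the gene of ERdj3, which brings unfolded chains to BiP, had 11.01, 10.68 and 10.74 on the knockdown arrays, against 11.32, 11.18 and 11.13 on the control arrays. Here too every knockdown array was below every control array, with knockdown replicate 1 the highest of its group, and Dnajb11 fell by 0.40 (SE 0.0985, adjusted p = 0.0776).

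Hspa5, which encodes BiP, the central chaperone of the ER lumen and a standard readout of the unfolded protein response, had 13.66, 13.65 and 13.62 on the knockdown arrays, against 13.65, 13.67 and 13.63 on the control arrays. The arrays of both groups were interleaved. Its fold change was -0.004 (SE 0.0549, adjusted p = 0.978), with a 95% confidence interval between -0.13 and 0.12, and its adjusted p was never below 0.739 under the alternatives that tested it. Hsp90b1, the gene of the ER form of HSP90, had 13.01, 12.99 and 13.06 on the knockdown arrays, against 13.20, 13.23 and 13.17 on the control arrays. Its groups did not overlap, but its fold change of -0.18 (SE 0.0567) did not pass the test (adjusted p = 0.138; 0.0860 with the replicate block).

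The co-chaperone genes Dnajc3 and Dnajc10 had fold changes close to that of Dnajb11 without passing the test. Dnajc10 encodes ERdj5, a co-chaperone that also reduces disulphide bonds of chains bound for degradation, and had 8.91, 8.58 and 8.78 on the knockdown arrays, against 9.03, 9.08 and 9.06 on the control arrays. All its knockdown arrays were below the control arrays, and the fold change was -0.30 (SE 0.0881, adjusted p = 0.116; 0.0555 with the block). Dnajc3, whose product also restrains PERK, had 9.53, 9.05 and 9.26 on the knockdown arrays, against 9.71, 9.49 and 9.55 on the control arrays, and knockdown replicate 1 lay within the control range. Its fold change was likewise -0.30, with a larger SE of 0.121 (adjusted p = 0.228; 0.0322 with the block), and its 2 probe sets hold identical values. Without knockdown replicate 2 the fold change of Dnajc3 was -0.19.

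Manf and Creld2 encode small ER proteins induced by ER stress, of which MANF is also secreted and protects neurons. Manf had 10.30, 10.36 and 10.34 on the knockdown arrays, against 10.56, 10.55 and 10.46 on the control arrays, groups that did not overlap. Creld2 had 12.04, 11.71 and 11.77 on the knockdown arrays, against 12.36, 12.05 and 11.95 on the control arrays, and overlapped through replicate 1 of the knockdown. Their fold changes were -0.19 (adjusted p = 0.132) for Manf and -0.28 (adjusted p = 0.283) for Creld2, and with the block both passed, at 0.0766 for Manf and 0.0307 for Creld2. Without control replicate 1 the fold change of Creld2 was -0.16. The remaining chaperone genes had smaller fold changes, -0.13 for Hyou1, a large HSP70-like chaperone and exchange factor for BiP, -0.11 for the co-chaperone genes Dnajb9 and Dnajc1, and 0.01 for Sil1, the other exchange factor, and none of these 4 passed in either fit.

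The lectin cycle had 3 genes, all with every knockdown array below every control array and none past the test. Over all genes tested, 11.7% had every knockdown array below every control array. Uggt1 encodes the glucosyltransferase that returns incompletely folded glycoproteins to the lectins, and had 12.15, 12.08 and 11.96 on the knockdown arrays, against 12.31, 12.33 and 12.26 on the control arrays. Its fold change of -0.24 (SE 0.0678) had an adjusted p of 0.107, just short of the threshold, and 0.0411 with the replicate block. The genes of the lectins themselves showed smaller differences. Calr, for the soluble calreticulin, had 13.54, 13.45 and 13.45 on the knockdown arrays, against 13.66, 13.58 and 13.56 on the control arrays, with a fold change of -0.12 (adjusted p = 0.335). Canx, for the membrane-bound calnexin, had 13.69, 13.66 and 13.62 on the knockdown arrays, against 13.79, 13.76 and 13.75 on the control arrays, with a fold change of -0.11 (adjusted p = 0.333). The differences were similar in the 3 replicate numbers, between -0.13 and -0.11 for Calr and between -0.13 and -0.10 for Canx, but neither gene passed with the block (adjusted p = 0.176 for Calr and 0.211 for Canx).

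Of the 9 disulphide genes 1 was lower and 0 were higher (11.1% called, a single gene, against 6.67% of all genes tested). In this group 7 had negative fold changes and the median was -0.12. P4hb encodes protein disulphide isomerase itself, which is also the second subunit of collagen prolyl hydroxylase, and had 12.87, 12.88 and 12.84 on the knockdown arrays, against 13.16, 13.17 and 13.05 on the control arrays. The knockdown arrays lay close together and below all control arrays, and P4hb fell by 0.27 (SE 0.0603, adjusted p = 0.0632). Pdia3, for ERp57, the isomerase that works with calnexin and calreticulin, had 12.89, 12.74 and 12.78 on the knockdown arrays, against 13.05, 13.01 and 12.99 on the control arrays. Its groups did not overlap either, and its fold change was -0.22 (SE 0.0639, adjusted p = 0.116; 0.0497 with the block).

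Ero1l, also named Ero1a, encodes the oxidase that recharges protein disulphide isomerase. It had 13.30, 13.11 and 13.12 on the knockdown arrays, against 13.09, 12.99 and 12.96 on the control arrays, so that all knockdown arrays were above the control arrays. The fold change of 0.16 (SE 0.0738) did not pass the test (adjusted p = 0.286; 0.103 with the block). Its paralog Ero1lb, close to the low-value filter, had a fold change of 0.01. Among the other isomerase genes the fold changes were -0.20 for Pdia6 (adjusted p = 0.255; 0.0567 with the block; -0.13 without control replicate 1), -0.13 for Pdia4, -0.12 for Txndc11, -0.10 for Pdia5 and -0.04 for Txndc5. The last 4 had knockdown arrays inside the control range and none passed in either fit, and a second, dim probe set of Pdia4 had a difference of 0.12.

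In ERAD, the lectin gene Os9 gave the most negative fold change of the 37 genes, the ligase gene Syvn1 came near the threshold, and the membrane protein gene Herpud1 lay on the other side of 0. Of 9 tested 1 was lower and 0 were higher (11.1% called, a single gene, against 6.67% of all genes tested), and the median was -0.16. Os9, whose product recognises trimmed glycans on misfolded glycoproteins and brings them to SEL1L, had 11.38, 11.09 and 11.08 on the knockdown arrays, against 11.78, 11.57 and 11.55 on the control arrays. Replicate 1 was the highest of its group in both conditions, and every knockdown array was below every control array. Os9 fell by 0.45 (SE 0.103, adjusted p = 0.0648), a signal that fell by 26.8%, and the pair differences of -0.40, -0.48 and -0.47 were nearly equal, with an adjusted p of 0.00868 in the blocked fit.

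Syvn1, the gene of the ubiquitin ligase HRD1, had 10.48, 10.60 and 10.59 on the knockdown arrays, against 10.74, 10.84 and 10.75 on the control arrays. The groups were separate, with a fold change of -0.22 (SE 0.0645, adjusted p = 0.115; 0.0480 with the block). Sel1l, which encodes the adaptor that holds OS9 and HRD1 together, had 11.84, 11.70 and 11.64 on the knockdown arrays, against 11.71, 11.73 and 11.65 on the control arrays. These values were interleaved, and the fold change was 0.03 (SE 0.0709, 95% confidence interval -0.13 to 0.19, adjusted p = 0.883). Os9 was called, Syvn1 stayed short of the threshold and Sel1l had overlapping groups, and the differences between these genes of 1 complex were not tested.

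Herpud1 encodes a membrane protein that assembles the ligase complex and is induced by ER stress. It had 12.67, 12.73 and 12.70 on the knockdown arrays, against 12.54, 12.61 and 12.55 on the control arrays. All knockdown arrays were above the control arrays, with a fold change of 0.14 (SE 0.0576, adjusted p = 0.246; 0.139 with the block). Derl2, a derlin of the retrotranslocation channel, had 10.48, 10.20 and 10.50 on the knockdown arrays, against 10.66, 10.67 and 10.69 on the control arrays, with knockdown replicate 2 the lowest; its fold change was -0.28 (adjusted p = 0.135; 0.0539 with the block) and, without that array, -0.18. Its relative Derl1 had -0.12, and the genes of the mannosidase-like proteins that mark glycoproteins for disposal had -0.19 (Edem2), -0.16 (Edem3) and -0.03 (Edem1), none of which passed in either fit.

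The sensor genes and Xbp1, which is counted with them but acts downstream of IRE1, did not share a direction. Of these 4 genes 0 were called, with a median of 0.06. Eif2ak3, the gene of PERK, had 10.74, 10.34 and 10.55 on the knockdown arrays, against 10.86, 10.86 and 10.75 on the control arrays. The groups were barely apart, at knockdown replicate 1 and control replicate 3, and the fold change was -0.28 (SE 0.101, adjusted p = 0.185; 0.0749 with the block), or -0.18 without knockdown replicate 2. Ern1, the gene of IRE1, whose endonuclease splices Xbp1 mRNA, had 11.02, 10.98 and 10.96 on the knockdown arrays, against 10.75, 10.88 and 10.88 on the control arrays. All knockdown arrays were above the control arrays, as they also were for Atf6, with 12.23, 12.03 and 12.04 on the knockdown arrays, against 11.99, 11.98 and 11.82 on the control arrays. Neither passed the test, with fold changes of 0.15 for Ern1 (adjusted p = 0.251; 0.161 with the block) and 0.17 for Atf6 (adjusted p = 0.295; 0.120 with the block). Xbp1 had 12.63, 12.58 and 12.62 on the knockdown arrays, against 12.72, 12.64 and 12.58 on the control arrays, a fold change of -0.04 (adjusted p = 0.831) in total Xbp1 signal, which does not separate spliced from unspliced mRNA.

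**Figure D3:**
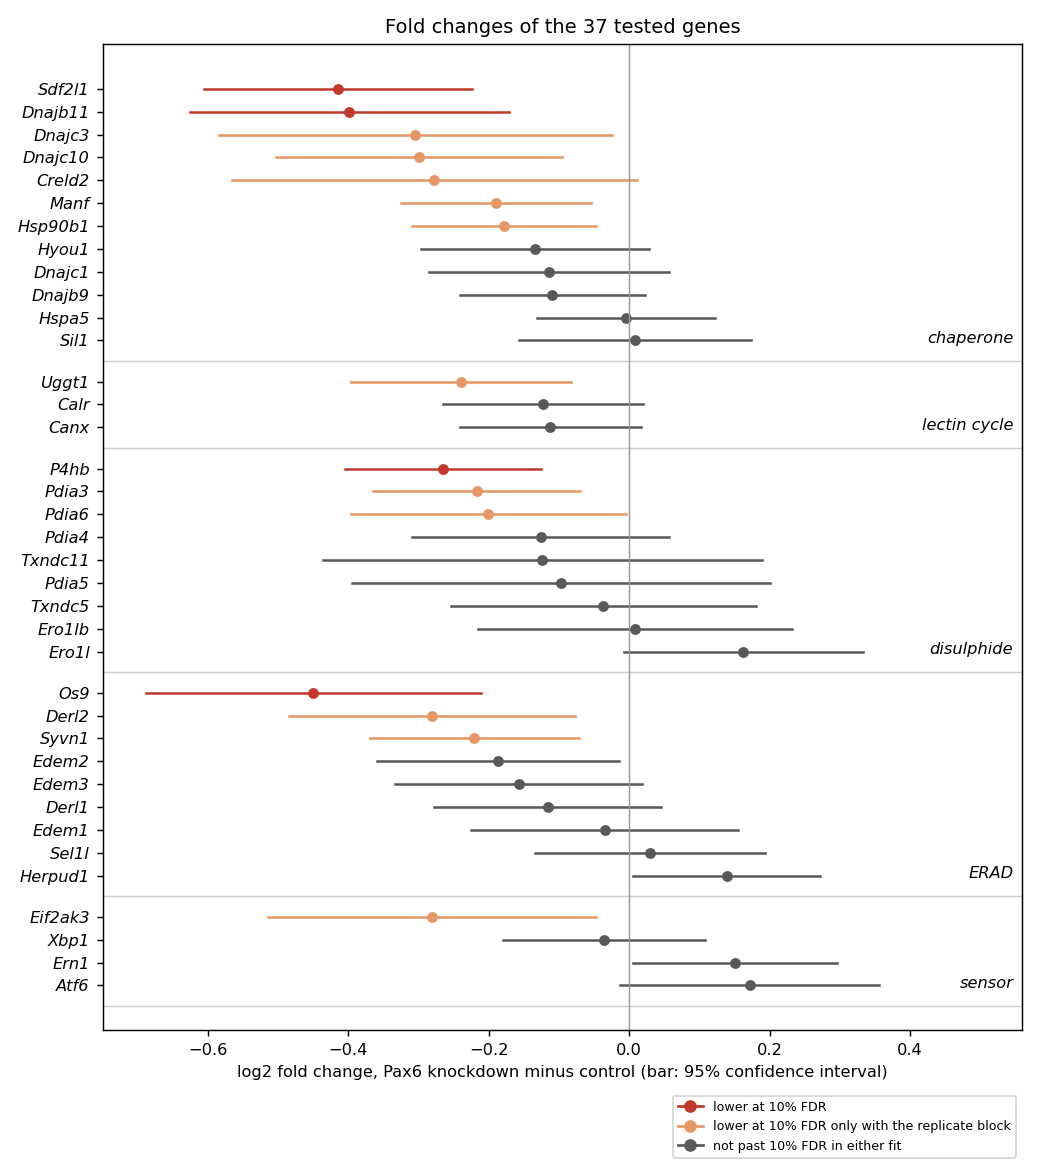
Fold change of each of the 37 tested genes (x axis, log2, Pax6 knockdown minus control) with its 95% confidence interval from the fit without a block, grouped by role on the y axis. Red marks the 4 genes lower at 10% FDR, orange the 11 genes that passed only with the replicate number as a block, and grey the genes that passed in neither fit; Hspa5 sits at 0 and the most positive values are those of Atf6, Ero1l, Ern1 and Herpud1.

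Other genes of the same pathway, also listed by name with earlier results of these data known, put these values in context. Among 34 tested genes of other ER folding factors, 8 were lower and 0 higher (23.5%), and the median was -0.21, with 18 lower and 0 higher with the replicate block. The 4 with the lowest adjusted p were Prkcsh (-0.36, adjusted p = 0.0310), the regulatory subunit of the glucosidase that admits glycoproteins to the lectin cycle, the prolyl isomerase gene Fkbp14 (-0.88, adjusted p = 0.0375), P4ha2 (-0.36, adjusted p = 0.0449), which encodes a catalytic partner of P4HB in collagen prolyl hydroxylase, and the disulphide enzyme gene Txndc12 (-0.38, adjusted p = 0.0607). The other 4, chosen because they passed, were Tmx4, Ganab, P4ha1 and Sdf2, of which Ganab encodes the catalytic subunit of the same glucosidase, P4ha1 another partner of P4HB, and Sdf2 a paralog of Sdf2l1. Among 26 tested genes of other ERAD factors, 2 were lower and 0 higher (7.69%, near the 6.67% of all genes tested), with a median of -0.02. They were Erlin2 (-0.45, adjusted p = 0.0321), which encodes an ERAD scaffold of the ER membrane, and Selenos (-0.57, adjusted p = 0.0651), for a partner of the ATPase p97.

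The ATF4 arm had its calls in the higher direction. Of 23 tested, 4 were higher and 0 lower (17.4%, against 6.67% of all genes tested), with a median of 0.09. In all, 18 fold changes were positive and 5 negative. Those of Asns (0.04), Psat1 (0.004) and Slc7a5 (-0.05) were close to 0, and that of Slc7a11 was -0.19, none of them called. With the block, 9 of the 23 were higher and 1 lower, against 8.96% of all genes tested called higher and 8.91% lower. Ddit3, for the transcription factor CHOP, had 11.48, 11.47 and 11.44 on the knockdown arrays, against 11.21, 11.17 and 11.14 on the control arrays, a rise of 0.30 (adjusted p = 0.0387). Trib3, a pseudokinase gene induced by ATF4 and CHOP, had 11.41, 11.37 and 11.45 on the knockdown arrays, against 10.98, 11.01 and 11.02 on the control arrays, a rise of 0.41 (adjusted p = 0.0178). Ppp1r15a, which encodes GADD34, the phosphatase subunit that reverses the translational block set by PERK, had 10.47, 10.29 and 10.41 on the knockdown arrays, against 9.95, 9.82 and 9.81 on the control arrays, a rise of 0.53 (adjusted p = 0.0175). The groups were well apart in all 3. Sesn2 was the fourth, at 0.27 (adjusted p = 0.0910), and Atf4 itself had a fold change of 0.11 (adjusted p = 0.464). These calls came from the same arrays as those of the folding genes, and the lists were not tested against each other.

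Among chaperones of other compartments the shares called lay near the 6.67% of all genes tested or below it. Of 31 cytosolic chaperone genes 0 were lower and 1 (Bag3, 0.27) was higher (3.23%), with a median of -0.01, and of 14 mitochondrial chaperone and protease genes 0 were lower and 1 (Lonp1, 0.28) was higher (7.14%), with a median of 0.04. Of 12 other genes of stress sensing 1 was lower (8.33% called), Atf6b (-0.26, adjusted p = 0.0741), the relative of Atf6, with 0 higher. Leaving out single arrays gave between 0 and 8 lower calls among the other ER folding genes, between 0 and 2 among the other ERAD genes and between 0 and 6 higher calls in the ATF4 arm, with 0 in all of these without control replicate 2 and without knockdown replicate 3.

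**Figure D4:**
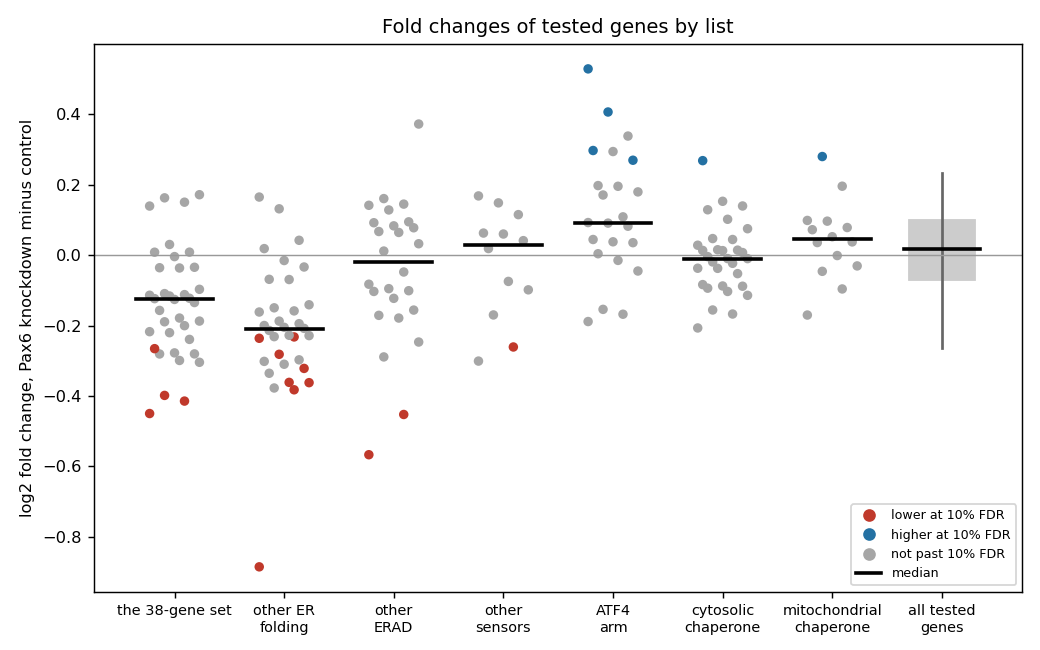
Fold change of each tested gene (y axis, log2, Pax6 knockdown minus control) in the 38-gene set and in 6 lists of related genes (x axis). Bars are medians, red and blue points passed 10% FDR, and for all tested genes the box spans the quartiles and the line the 5th to 95th percentile; the median is -0.13 for the 37 tested genes of the set, -0.21 for other ER folding genes and 0.09 for the ATF4 arm.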

How the data were processed

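RNA of 6 transfected N2A cultures, 3 with the Pax6 shRNA vector and 3 with the non-targeting vector, was measured on Affymetrix Mouse Gene 1.0 ST arrays. The authors background-corrected the arrays with RMA, quantile normalised them and summarised each probe set, and the deposited values are on the log2 scale. Tool versions and the height of their filter for low expression are not given in the sources used here. Such normalisation hides a change in total RNA and compresses differences near background, and the number of arrays limits the precision. According to the study's methods the cultures are biological replicates. The p-values rest on the spread between cultures, with each gene's variance moderated by that of all genes tested. A gene with a very small spread of its own, such as Hspa5, therefore has a larger SE than that spread alone would give.

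Among 35556 probe sets 0 values were missing, and array medians lay between 7.49 and 7.59. Probe sets with 1 gene symbol in the platform annotation (21789, against 1621 with several and 12146 with none) were used, and 1 per gene was kept by its mean over all 6 arrays, the highest winning. All 38 genes matched, 2 of them by an alias (Ero1a and Ero1b). Genes entered the test if they exceeded the overall probe set median of an array on 3 or more of the 6 arrays, a filter passed by 11424 genes. Knockdown and control were compared in limma 3.58.1 under R 4.3.3 with lmFit and eBayes, two-sided, and every adjusted p is from that tool with Benjamini-Hochberg adjustment over all genes tested, at 10% FDR. The procedure was also run on simulated data, with independent noise on each array and added changes larger than most of those described here. That run therefore does not show how well changes of the present size are detected. No set test was run: lists are described by counts and medians.

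The 38 genes and the comparison lists were chosen with earlier results of these data known. In each role the text took by rule the gene with the highest level and those with the lowest p, every called gene, and fixed names such as Hspa5 and the sensors; from other lists it took up to 4 called genes with the lowest adjusted p. The rest of the 38 are named to account for each. Of the reference genes Actb, Tbp, Hprt, Ppia and Lmnb1, fold changes ranged between -0.01 and 0.26, and 1, Hprt, was called.

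The labels give both groups replicate numbers 1 to 3 with no word on their meaning. Residuals from the group means, across tested genes, correlated at 0.574, 0.323 and 0.23 within numbers 1, 2 and 3, which was read as pairing the arrays, and a fit with the number as a block was an alternative. The pairing comes from the data; knockdown replicate 2 and control replicate 3 also correlated, at 0.178. In all, 16 alternatives were run, which varied the low-value filter, normalisation, probe set choice, array weighting, variance model and the arrays included.

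Promoter windows came from RefSeq (GRCm38.p6), 250 bases before to 50 after each start. Elements were matched exactly on both strands, and the flanks shown are 4 bases. The share given for tested genes counts those with a window.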

Additional observations from a re-analysis of the deposited data

How the results depend on the processing

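Blocking on the replicate number, which pairs the arrays, 2042 of 11424 genes passed instead of 762, with 1018 of them lower and 1024 higher. In that fit 15 of the 37 tested genes of the set were called lower instead of 4. Of the other lists, 18 of 34 other ER folding genes were lower and 9 of 23 ATF4 arm genes higher. The 4 genes called without the block were among the 15, and 0 of the 38 were higher in either fit. Without a low-value filter 245 of 19938 genes passed, 177 of them lower, and 0 of the 38 were lower. With a filter at the 25th percentile 389 of 16402 passed, 259 of them lower, and 1 of the 38 was lower. With a filter at the 75th percentile 1046 of 5982 genes passed, 517 of them lower. In that fit 33 of the 38 were tested, 10 were lower, and Pax6 was not tested. A variance filter, under which only 23 of the 38 were tested, left 136 calls, 0 of them among these 23, whose median was -0.22. Pax6, at -0.38, no longer passed the threshold with it (adjusted p = 0.143). A second quantile normalisation gave 1383 calls among 11424 genes, 782 of them lower, and 13 of the 37 tested genes of the set lower. Array weights gave 4239 calls among 11424 genes, 1600 of them lower and 2639 higher. Of the 37 tested genes of the set 20 were lower and 4 higher (Atf6, Ero1l, Ero1lb and Herpud1). The estimation of the weights stopped before it converged, so these counts are doubtful. A trended robust variance gave 1054 calls among 11424 genes, 595 of them lower and 459 higher. Of the 37 tested genes of the set 10 were lower and 1 higher (Herpud1). Leaving out 1 array gave between 51 and 1285 calls in all, and between 43 and 465 genes called lower. Of the 37 tested genes of the set between 0 and 8 were lower, with 0 higher each time. Pax6 lay between -0.42 and -0.32 and was short of the threshold without any one control array or knockdown replicate 3. No called value of the genes named changed sign. Array centring and the mean of a gene's probe sets kept the same 4 calls. Over the alternatives the adjusted p ranged between 0.00223 and 0.189 for Sdf2l1, 0.00197 and 0.233 for Os9, 0.00275 and 0.259 for Dnajb11, and 0.00511 and 0.270 for P4hb. The cause of these shifts was not tested; filters change how many genes share the adjustment, and leaving out an array lowers the sample number. The median of all tested genes stayed between -0.01 and 0.05.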
